A study of Mus musculus with 2 samples.

Results

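The ubiquitin-specific proteases are the largest family of deubiquitinases, the enzymes that take ubiquitin off proteins. Ubiquitin marks proteins for the proteasome, for sorting in endosomes or for signalling, and on histones it takes part in transcription and DNA repair, so these enzymes oppose the ubiquitin ligases in each of those settings. Their names, Usp followed by a number, were used to choose the genes described here: the 56 protein-coding RefSeq loci of the mouse assembly GRCm38 whose symbol begins in that way, out of 21900 protein-coding loci. The rule used no measured value. It also takes in Usp6nl, a Rab GTPase-activating protein that is no protease.

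The measurement was the binding of UPF1 to RNA. UPF1 is a helicase that drives nonsense-mediated decay, the pathway that removes transcripts whose translation stops early, and it also binds long 3′ untranslated regions. Enhanced crosslinking and immunoprecipitation (eCLIP) was carried out in cultured neural progenitor cells from mouse cortex of the genotype Upf2fl/fl, in which both copies of Upf2, a partner of UPF1, carry loxP sites. RNA was trimmed with RNase I, UPF1 was pulled down with its RNA, and the pull-down was compared with an input library. Both libraries are labelled MOCK, which the labels do not explain, and nothing in the labels says that Upf2 had been deleted. The labels read here give no age, sex or number of animals. There was 1 immunoprecipitate and 1 input, without replicates, so no test between conditions was possible and every comparison below describes these 2 libraries.

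The authors' deposited list holds 123349 clusters, stretches of RNA where immunoprecipitate reads piled up, each with a pair of the authors' values. The list has no header, and the pair was read, from its values, as the −log10 p and the log2 fold of immunoprecipitate over input. Read numbers per cluster were reconstructed here from that pair of values. An input of 1 may stand for no read, and intervals on folds are exact 95% intervals on those reads (Clopper-Pearson) that cover counting error only. Clusters that reach 3 on both scales, the log2 fold and the −log10 p, are called enriched here. By this rule 11.6% of all clusters were enriched. Of 10 markers fixed for neural progenitors, all 10 had a same-strand cluster and 7 had an enriched one. The highest of them were Slc1a3 at 6.81, Msi1 at 6.28 and Sox9 at 5.92. Sox2 reached 3.62 and Nes 3.37, while Pax6, Vim and Notch1 had clusters but none enriched. Among the 8 markers of microglia, blood and vessels there was no same-strand cluster, although Pdgfrb, of unset strand, had 1 cluster. Markers of astrocytes and of the oligodendrocyte lineage had same-strand clusters in 4 of 5 genes each, and all of those had an enriched one, Gfap at 6.004 and Olig2 at 5.69 among them. Aqp4, an astrocyte marker of unset strand, had 18 clusters that were not counted. Of 6 neuronal markers, 4 had a cluster and 2 an enriched one, Dcx at 5.53 and Map2 at 5.47, while Tubb3 and Snap25 had none. RNA of glial and neuronal genes was therefore in the libraries beside that of progenitor genes. The part of either in the values below was not tested. The cells were lysed in bulk, so fewer cells of a type and less RNA per cell cannot be told apart. The list gives no expression level, and a gene without a cluster may be silent or merely unbound. Coordinates are GRCm38 throughout, and whether a cluster lies in an exon, an intron or an untranslated region was not analysed here.

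UPF1 was enriched on 15 of the 40 Usp genes that had a cluster on their strand, or 37.5% (Wilson 95% interval 24.2 to 53.0). Over all 9480 protein-coding genes with a cluster, 34.8% had an enriched one, so the family was close to the background. The 40 genes held 539 clusters, of which 50 were enriched, or 9.28% (interval 7.11 to 12.02), against the 11.6% of the whole list. Usp22 alone held 15 of the 50, and without it 35 of 523 clusters were enriched (6.69%). The median over genes of the highest log2 fold was 2.78, against 2.56 over all protein-coding genes. Usp genes had a median of 10 clusters each, against 6 over all protein-coding genes. A highest fold, or a share of genes with any enriched cluster, can rise with the number of clusters, and neither was adjusted for it. Taken over clusters, the median log2 fold was 0.56 in Usp genes and 0.71 in all protein-coding genes. Intervals on shares treat clusters and genes as independent and cover counting error only.

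The 15 genes, in order of their highest log2 fold, were Usp22, Usp7, Usp24, Usp30, Usp47, Usp32, Usp10, Usp6nl, Usp21, Usp46, Usp20, Usp48, Usp37, Usp3 and Usp5. Of these, 7 had 1 enriched cluster only and 5 had 5 or more. The other 25 genes with a cluster had none. The remaining 16 members had no cluster that could be placed on their strand. For 14 of them there was none on either strand: Usp1, Usp18, Usp26, Usp29, Usp42, Usp43, Usp50, Usp51, Usp9y and the 5 copies Usp17la to Usp17le. Usp17l copies resemble each other closely, as do Usp9x and Usp9y, so reads could be lost or shared between them. Usp39, a spliceosome protein without protease activity, had 1 cluster at a log2 fold of 0.56, and Usp44 had 2, at 0.98 and 1.56, both inside Metap2. The strand of Usp39 and Usp44 could not be set.

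**Figure D1:**
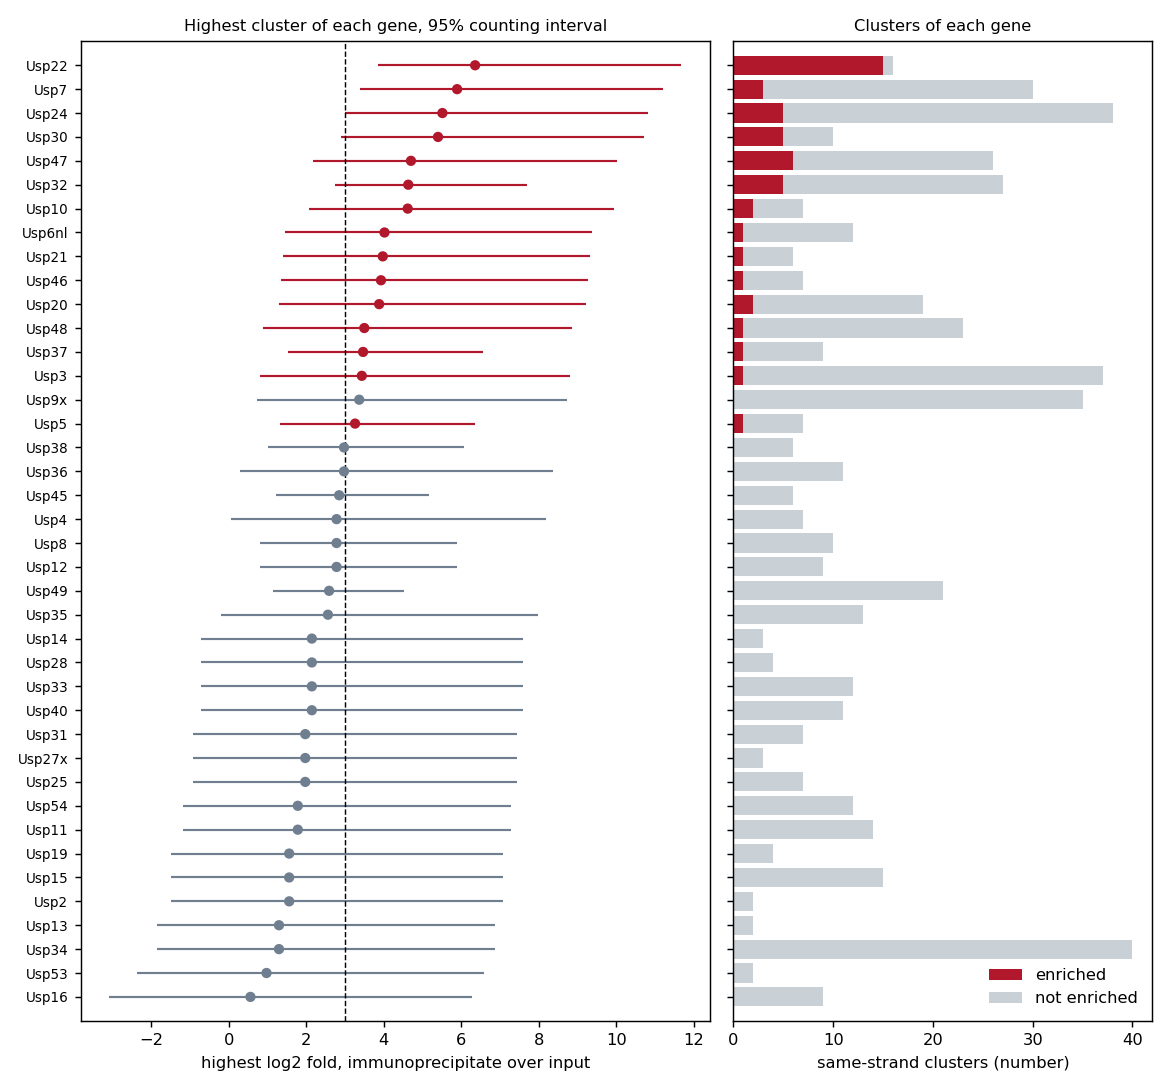
Left, the highest log2 fold of immunoprecipitate over input in each of the 40 Usp genes with a same-strand cluster, as a point with its exact 95% counting interval; the dashed line marks the threshold of 3 and red marks genes with an enriched cluster. Right, the number of clusters per gene, enriched in red. Usp22 stands at the top with 15 of 16 clusters enriched, whereas Usp34 has 40 clusters and none enriched, and the intervals of neighbouring genes overlap.

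The members are described below by role, and the order of the roles is no ranking. In the list of enzymes that act on histones H2A and H2B, 3 of the 6 genes with a cluster had an enriched one, too few genes to set apart from the 34.8% of all genes. Usp22 is the deubiquitinase of the SAGA coactivator, which removes ubiquitin from histone H2B. It lies on chromosome 11 from 61151781 to 61175059 (GRCm38). Of its 16 clusters, 15 were enriched, with log2 folds between 4.54 and 6.36 and 59 to 445 immunoprecipitate reads per cluster. The promoter table gave no strand for Usp22, so its strand, and with it its 3′ end, was set from its own clusters. All 15 enriched clusters lay between 659 and 2593 nt from the annotated 3′ end of the locus. Together they covered 884 nt, and 7 that touch one another formed a run of 333 nt from 61154074 to 61154406.

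The highest fold in Usp22 was that of the cluster from 61153544 to 61153641, at 6.36 (interval 3.86 to 11.67) from 167 reads against 1. The deepest, from 61154317 to 61154341, held 445 reads against 4 and stood at 5.77 (interval 4.41 to 7.66), with a −log10 p of 69.88. The lower bounds of both lie above the threshold of 3, so both stay above it at the edge of the counting error. The one cluster of Usp22 that was not enriched lay far from the others, with its midpoint 635.5 nt from the 5′ end, at 1.78. Among the 3296 protein-coding genes with an enriched cluster, 79 had more enriched clusters than Usp22 and 247 had more nucleotides in them. The 3 enriched clusters nearest its 3′ end also lay inside Tnfrsf13b, which RefSeq places on the opposite strand.

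The other enzymes listed for histones H2A and H2B carried far fewer enriched clusters. Usp21, an H2A deubiquitinase, had 1 of 6, at 3.98 (interval 1.39 to 9.32) from 32 reads against 1 on chromosome 1 (171286609 to 171286749). Usp3, which also acts on H2A, had 1 of 37, at 3.40 (interval 1.46 to 6.49) from 43 reads against 2 on chromosome 9 (66517970 to 66518137). Usp49, an H2B deubiquitinase, had 21 clusters and a highest fold of 2.59, but all 21 also lay in another locus on the same strand. Usp16 had 9 clusters and its highest was 0.56, the value of 3 reads against 1 and the lowest among the 40 genes. Usp27x, a close relative of Usp22, had 3 clusters, none above 1.98.

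Of the enzymes of genome stability and the p53 pathway, 3 of the 5 genes with a cluster had an enriched one. These are too few genes to set apart from the 34.8% of all genes. Usp7, which deubiquitinates MDM2 and p53, lies on chromosome 16 from 8688722 to 8757067. It had 3 of 30 clusters enriched. Its cluster from 8690341 to 8690528 reached 5.89 (interval 3.39 to 11.21) from 121 reads against 1, the adjoining one reached 4.73 from 54 against 1, and the one from 8689726 to 8689798 reached 3.62 from 25 against 1. All 3 lay between 1040 and 1713 nt from the 3′ end, while the median log2 fold of its 20 clusters more than 5000 nt away was 0.25.

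Usp47, a relative of Usp7 that acts on DNA polymerase beta in base excision repair, had 6 of 26 clusters enriched. They stood between 284 and 1144 nt from its 3′ end on chromosome 7. Their log2 folds ran from 3.64 to 4.70, and 4 of them had 2 or 3 input reads. The cluster from 112110764 to 112110890 was the deepest, with 101 reads against 2 and a fold of 4.63 (interval 2.74 to 7.70). Usp48, another H2A deubiquitinase, had 1 of 23 enriched, at 3.22 (interval 1.27 to 6.32), on chromosome 4 from 137656616 to 137656736. Usp48 also had a pair of clusters at 3.50 from 23 reads against 1 that missed the p threshold. Usp11 and Usp28, which take part in the response to DNA breaks, had 14 and 4 clusters and highest folds of 1.78 and 2.15. For Usp11, 2 of the 14 lay in an overlap with another locus.

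**Figure D2:**
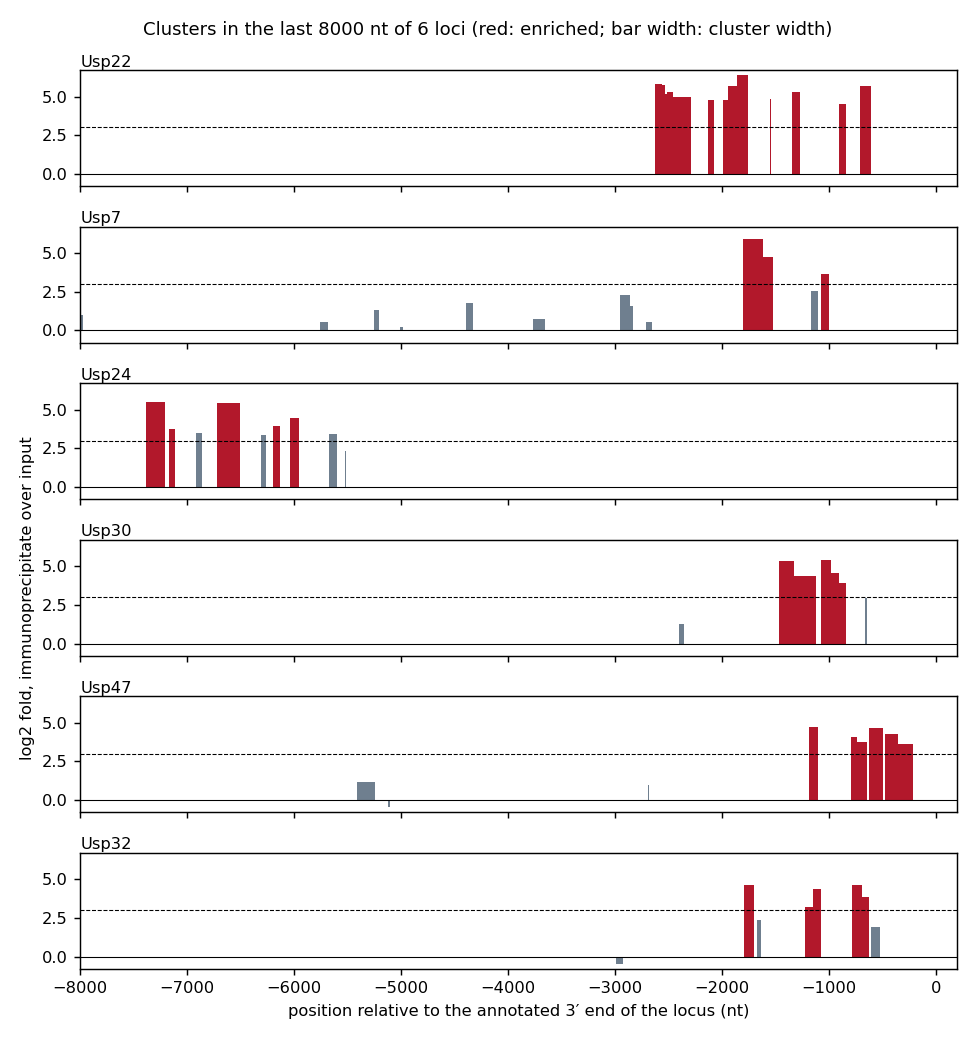
Clusters over the last 8000 nt of the 6 Usp genes with the highest folds, drawn by distance from the annotated 3′ end (horizontal, nt) and by log2 fold of immunoprecipitate over input (vertical), with enriched clusters in red. The enriched clusters of Usp22 lie between 659 and 2593 nt from the end, whereas those of Usp24 begin at 5996 nt and no cluster of Usp24 lies closer than 5518 nt.

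Of the 4 enzymes at organelle membranes, all had clusters and 2 an enriched one, again too few genes to set apart from the 34.8% of all genes. Usp30, which sits in the outer mitochondrial membrane and opposes mitophagy, had 5 of 10 clusters enriched on chromosome 5. Its highest fold was 5.40 (interval 2.89 to 10.72) from 86 reads against 1, at 114122435 to 114122525, and the other 4 stood at 5.33, 4.59, 4.35 and 3.93. The 5 clusters formed a run of 347 nt and another of 235 nt, at 876 to 1398 nt from the 3′ end. Usp20, which deubiquitinates membrane receptors, had 2 of 19 enriched, at 3.88 (interval 1.29 to 9.23) and 3.78, on chromosome 2, the first from 31022355 to 31022445 with 30 reads against 1 and the second with 28 against 1. Its relative Usp33 had 12 clusters and a highest fold of 2.15. Usp19, which is anchored in the endoplasmic reticulum, had 4 clusters, none above 1.56.

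All 8 genes of the endosome and signalling list had clusters, and 1 of them, Usp10, had enriched ones. These are again too few genes to set apart from the 34.8% of all genes. Of the list's 123 clusters 2 were enriched (1.63%), against 11.6% of the whole list of clusters. Most of them, 109, lay more than 5000 nt from the 3′ end, where 0 were enriched here and 1.43% over all protein-coding genes. Of the 14 nearer ones 2 were enriched, against 34.4% of such clusters over all protein-coding genes, and 14 clusters are few. Usp10 binds the stress granule protein G3BP1 and also deubiquitinates p53. Its cluster from 119956946 to 119957078 on chromosome 8 stood at 4.62 (interval 2.08 to 9.95) from 50 reads against 1, and its neighbour at 3.83 from 29 against 1. Usp34, a large enzyme of the Wnt pathway, had the most clusters of any member, 40, with folds from −1.83 to 1.30, and 17 of them were at or below 0. Just 1 of the 40 lay within 5000 nt of the 3′ end, and 1 shared its position with another locus.

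Usp9x, an X-linked enzyme with many substrates that is needed in neural progenitors, had 35 clusters with folds from −2.72 to 3.37. The one nearest the annotated 3′ end was 6759 nt away. Its highest fold, from 21 reads against 1, lay 79232 nt from the end and touched another at 2.88 from 15 reads against 1. This cluster passed the fold but not the p threshold, with a −log10 p of 2.59 and an interval from 0.73 to 8.74. Usp15, which acts in TGF-beta signalling, had 15 clusters, none above 1.56 and none closer than 14024 nt to the end, and 3 of them lay in an overlap with another locus. Usp4 and Usp8, the latter a regulator of endosomal sorting, each reached 2.78, from 14 reads against 1 and 28 against 2. Usp25 peaked at 1.98 over 7 clusters, and Usp2 at 1.56 over 2.

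The remaining groups were small. Among the enzymes that recycle ubiquitin chains, Usp5 had 1 of 7 clusters enriched, at 3.26 (interval 1.31 to 6.36) from 39 reads against 2, on chromosome 6 from 124815062 to 124815237, with its midpoint 131 nt from the 3′ end. Its relative Usp13 had 2 clusters, none above 1.30, and Usp14, which acts at the proteasome, had 3, none above 2.15. Of the enzymes activated by the WD-repeat protein WDR48, Usp46 had 1 of 7 enriched, at 3.93 (interval 1.34 to 9.28) from 31 reads against 1, on chromosome 5 from 74000827 to 74000953. The closely related Usp12 reached 2.78 from 28 reads against 2 with a −log10 p of 2.86, just short of both thresholds, and Usp1 had no cluster. Usp54 and its relative Usp53 had 12 and 2 clusters and highest folds of 1.78 and 0.98, and 6 of the 12 lay in locus overlaps. Usp18, which removes the ubiquitin-like ISG15, had none.

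Of the members outside these lists, Usp24 and Usp32 stood highest. Usp24 is a large enzyme on chromosome 4, from 106315980 to 106446613, whose substrates include the DNA damage sensor DDB2. It had 5 of 38 clusters enriched, at 5.51 (interval 3.001 to 10.83), 5.45, 4.44, 3.93 and 3.73, and all 5 had 1 input read. Another 3 among or beside them passed the fold but not the p threshold. All of these lay 5636 to 7299 nt from the annotated 3′ end, and no cluster lay nearer than 5518 nt. The next one upstream, at 10649 nt, stood at 0.30.

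Usp32, a membrane-associated enzyme that acts on the GTPase RAB7, had 5 of 27 clusters enriched, between 660 and 1749 nt from its 3′ end on chromosome 11. The folds ran from 3.19 to 4.63. The highest, at 84986135 to 84986236, came from 101 reads against 2 (interval 2.74 to 7.70). Another 2 of its clusters overlapped other loci. Usp37, a cell cycle enzyme that stabilises cyclin A, had 1 of 9 enriched, at 3.47 (interval 1.53 to 6.56) from 45 reads against 2 on chromosome 1 (74438336 to 74438513). Usp6nl, the Rab GTPase-activating protein, had 1 of 12 enriched, at 4.02 (interval 1.44 to 9.37) from 33 reads against 1, at 5859 nt from the end on chromosome 2 (6442383 to 6442491). Without Usp6nl, 14 of the 39 remaining genes had an enriched cluster.

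Several members came close to the thresholds. Usp38 reached 2.98 (interval 1.01 to 6.08) from 32 reads against 2 with a −log10 p of 3.47, and so missed the fold. Usp45, a DNA repair enzyme, reached 2.85 (interval 1.21 to 5.18) from 44 against 3 with 4.53, and missed it likewise. Usp36, a nucleolar enzyme, reached 2.98 (interval 0.29 to 8.37) from 16 against 1, with a −log10 p of 1.75. Just inside, Usp48 was called at 3.22 and Usp5 at 3.26. The intervals of all of these overlap widely, so the line between called and not called genes near 3 is not a difference between them. Farther below, Usp35 peaked at 2.56 over 13 clusters, Usp40 at 2.15 over 11 and Usp31 at 1.98 over 7. An overlap with another locus held 1 cluster of Usp40.

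The highest cluster of Usp49 lay at its start, and that of Usp31 also lay close to the 5′ end, 277 nt from it. All 21 clusters of Usp49 also lay in Gm20517, a locus on the same strand, so they cannot be assigned to one or the other. The cluster with the highest fold, 2.59 (interval 1.14 to 4.52) from 49 reads against 4, began 32 nt from the annotated start of the gene, and its −log10 p of 4.61 was the highest among the members without an enriched cluster. Its first 18 nt fall inside the RefSeq promoter window (GRCm38.p6, plus strand, chr17:47630722-47630739). They are shown because they are the piece of that cluster which the promoter table covers, and no letter is set in capitals because no motif was searched.
Usp49: gtggggaaagagaaagga
Of these 18 bases, 17 are purines, a description of a short piece and of no other cluster.

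Position set the enriched clusters of the family apart from its other clusters, as it did across the transcriptome. Of the 50 enriched clusters, 44 had their midpoint no more than 5000 nt from the 3′ end of the locus, introns included, or 88.0% (interval 76.2 to 94.4), against 12900 of 14080 (91.6%) over all protein-coding genes. The other 6 were the 5 of Usp24 and the 1 of Usp6nl. Of the 159 Usp clusters within 5000 nt, 27.7% were enriched, and of the 380 farther away, 1.58%. Over all protein-coding genes those shares were 34.4% and 1.43%. Counted by gene, 13 of the 35 members with a cluster near the 3′ end had an enriched one there, or 37.1%, against 37.5% of all such genes.

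Within the last 10000 nt the share of enriched clusters was highest between 1000 and 2000 nt. It was 15 of 59 (25.4%) in the last 1000 nt, 17 of 40 (42.5%) from 1000 to 2000 nt, 12 of 60 (20%) from 2000 to 5000 nt and 6 of 63 (9.52%) from 5000 to 10000 nt. The corresponding shares over all protein-coding genes were 36.0%, 40.3%, 28.1% and 8.30%. Usp22 held 8 of the 12 from 2000 to 5000 nt, and without it that class was 4 of 52 (7.69%), while the first 2 classes were 13 of 57 (22.8%) and 12 of 35 (34.3%). Of 258 Usp clusters more than 20000 nt from the end 0 were enriched. A count of 0 there leaves room for a share as high as 1.16%, and the share over all genes was 0.498%. Of the 33 members with clusters both near and far of 5000 nt, the near median fold was the higher in 28. That count was not made over all genes. Over clusters, the median fold was 2.15 near and 0.56 far in Usp genes, and 2.56 near and 0.56 far in all protein-coding genes. Just 1 of the 50 enriched clusters lay closer to the 5′ than to the 3′ end of its locus. It was that of Usp21, whose locus is only 6013 nt long, so that its position 4730 nt from the 3′ end and 1282 nt from the 5′ end counts as near.

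**Figure D3:**
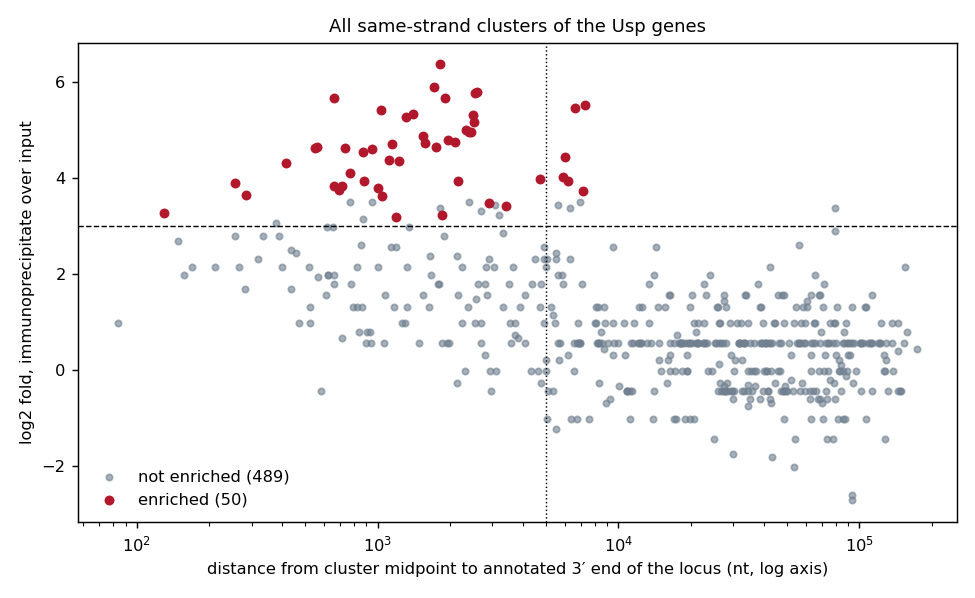
Each of the 539 same-strand clusters of Usp genes by the distance of its midpoint from the annotated 3′ end (horizontal, nt, log scale) and its log2 fold of immunoprecipitate over input (vertical); lines mark the fold of 3 and 5000 nt, and enriched clusters are red. Of the enriched clusters 44 lie within 5000 nt and none lies beyond 7299 nt.

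Depth went with these calls. The enriched clusters held 25 to 445 immunoprecipitate reads, with a median of 67.5, and a median of 1 input read. For 26 of the 50 the input was 1. The 344 clusters that were not enriched but had a fold above 0 held a median of 5 reads against 1, and 116 of them were 3 reads against 1. Against 1 input read, 17 immunoprecipitate reads are enough for a fold of 3, but 24 are needed to pass both thresholds. Of the 25 members without an enriched cluster, 20 had no cluster with a fold above 0 that held 24 reads, and the other 5 were Usp38, Usp45, Usp12, Usp8 and Usp49. Immunoprecipitate reads are part of the fold itself, so this count describes the calls and gives no limit of detection. Over all protein-coding genes without an enriched cluster the share was 89.3%, against 80% here. How much of the difference between members follows the abundance of their RNA was not tested, since the list holds no expression level.

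**Figure D4:**
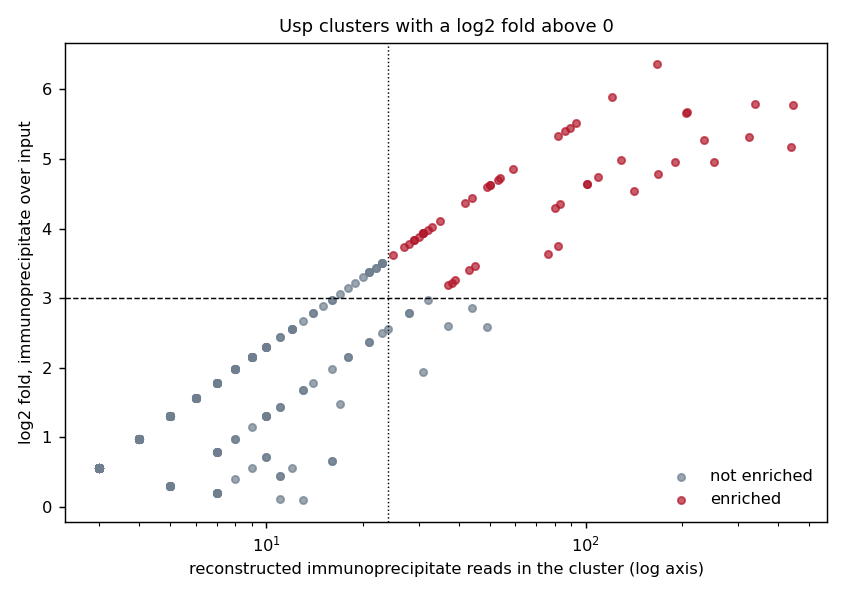
Reconstructed immunoprecipitate reads (horizontal, log scale) against log2 fold of immunoprecipitate over input (vertical) for the Usp clusters with a fold above 0; enriched clusters are red and the dotted line marks 24 reads, the fewest that pass both thresholds against 1 input read. The enriched clusters hold 25 to 445 reads.

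Other deubiquitinases and partners of the family were described by the same rule. Of 37 genes listed as other deubiquitinases, 33 had a same-strand cluster and 8 an enriched one, or 24.2% (interval 12.8 to 41.0). That interval overlaps the one of the Usp genes and holds the 34.8% of all protein-coding genes. The list includes 3 genes of the USP fold without a Usp symbol, Cyld, Uspl1 and Pan2, and none of them had an enriched cluster. Whether each listed gene acts on ubiquitin was not examined. The highest folds were those of Otud5 at 5.56 (interval 3.05 to 10.88), Mindy2 at 5.04 and Otud7b at 4.73. Mindy2 held 12 of the 24 enriched clusters. Vcpip1 and Cyld had 11 and 9 clusters with none enriched, as did Psmd14 and Mysm1 with 9 each. None of the 6 JAMM metalloproteases with a cluster had an enriched one, too few genes to set apart from the 34.8% of all genes. Among them, Stambp reached 2.83 with a −log10 p of 3.07, and so missed the fold alone. Cops5, a JAMM gene of unset strand, had 1 cluster that was not counted. Of 78 F-box genes, which encode subunits of ubiquitin ligases, 42 had a cluster and 14 an enriched one (33.3%, interval 21.0 to 48.4).

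Among 9 genes listed here as partners of Usp proteins, 4 had an enriched cluster, which for so few genes is near the 34.8% of all genes. The place of Adrm1 and Uchl5 in that list is not established, and neither had an enriched cluster. Uchl5 is also counted among the other deubiquitinases. Wdr48, whose product activates USP1, USP12 and USP46, had all 3 of its clusters enriched, the highest at 6.08 (interval 4.22 to 9.14) from 276 reads against 2. Gmps, a partner of USP7, reached 4.78, Atxn7l3, a SAGA subunit that activates USP22, reached 4.30, and G3bp1 reached 4.19. Atxn7, which anchors the same SAGA module, had 15 clusters and none above 1.30, and Wdr20 had 10 and none above 1.78.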

How the data were processed

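UPF1 eCLIP was measured in 1 immunoprecipitate and 1 input library. UMI-tools, cutadapt, STAR and the build mm10 (GRCm38) are named in the submitters' processing notes. For the cluster caller, its filters and the formula of the fold, the labels read here name nothing. The authors deposited one cluster list without a header, with values per cluster that were read, from their range and steps, as a −log10 p value and a log2 fold of immunoprecipitate over input. The p is capped at 400. Library totals were not used.

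The members and lists were chosen with earlier results of these data known. A cluster was counted for a RefSeq locus on its strand that covers most of its bases. Strands came from the RefSeq promoter table for 43 members, from clusters (at least 80% of 2 or more in no other locus) for 6, and were unset for 7. The 6 were Usp5, Usp9x, Usp14, Usp22, Usp33 and Usp53. In table-strand members, 428 of 428 clusters in no other locus lay on the table's strand.

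Reads were reconstructed from the deposited pair of values for 90006 of 90107 clusters with a fold above 0 (99.9%), within 0.05 or 1% of the −log10 p. The commonest fold, 0.56, was read as 3 reads against 1, which sets the immunoprecipitate at 2.03 times the input depth. Only the reconstruction of reads was tested on simulated pairs of counts. Their values were built with the formula that the reconstruction inverts, so the test cannot show that the deposited values follow it. Shares have Wilson 95% intervals. With 1 library a group no test was made. Named in full were members with an enriched cluster, the 8 with most clusters and none enriched, those within 0.3 of the fold of 3, and those in overlapping loci, and of other lists the 3 highest and the 2 with most clusters and none enriched. Alternatives changed the thresholds, the distance and the treatment of overlaps and of single input reads. Python 3.11.15, pandas 2.3.3, numpy 2.4.6, scipy 1.17.1 and matplotlib 3.10.9 were used.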

Additional observations from a re-analysis of the deposited data

Results flagged for a closer look

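The Usp37 locus held 10 clusters on the strand opposite to Usp37, which the comparisons above do not use, and 4 of them were enriched. Their log2 folds ran from −0.29 to 4.15. All 10 lay in Cnot9 or Plcd4, loci annotated on that other strand, between 74506262 and 74543005 on chromosome 1. There was no control library beyond the input that enters each fold.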

How the results depend on the processing

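No paired analysis was possible because there was 1 library a group. The 50 enriched Usp clusters became 54 at a log2 fold of 2, 33 at a fold of 4, 35 at a −log10 p of 5, 47 with clusters in 1 locus only and 24 where clusters with 1 input read were left uncalled. The 15 genes became 18, 8, 9, 15 and 8 under the same alternatives. The shares over all clusters and all protein-coding genes were not computed under these alternatives. The counts therefore do not show how the family stood against the background there. A fold of 4 lost Usp3, Usp5, Usp20, Usp21, Usp37, Usp46 and Usp48. The p of 5 lost Usp5, Usp6nl, Usp20, Usp21, Usp46 and Usp48. Leaving single input reads uncalled lost Usp6nl, Usp7, Usp10, Usp20, Usp21, Usp24 and Usp46. The other deubiquitinase genes went from 8 to 5 at a fold of 4 and to 5 at a −log10 p of 5. The share of enriched clusters near the 3′ end was 64% within 2000 nt, and 82.9% within 5000 nt without Usp22, an alternative chosen after seeing the data. The median of the highest folds was 3.95 over clusters with a −log10 p of at least 3 and 1.17 for a length-weighted mean fold. The first covers only the genes with such a cluster, a set chosen by the p itself. It is therefore not comparable with the median over all members with a cluster. Of the 30 named members, 18 had a cluster with a −log10 p of at least 3.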

Other observations

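Close relatives in the family did not all carry the same calls. These are values of 2 libraries, and no difference between relatives was tested. Usp22 had 15 of 16 clusters enriched, while its relative Usp27x had 3 clusters, none above a log2 fold of 1.98, and Usp51 had no cluster. Usp7 and Usp47 both had enriched clusters, at 5.89 and 4.70. In contrast, Usp4, Usp11 and Usp15 had 7, 14 and 15 clusters and none enriched, and Usp25 and Usp28 had 7 and 4 and none enriched.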
